A study of Mus musculus with 7 samples.

Results

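The G1 cyclins of the D and E types were followed across mouse embryonic fibroblasts (MEFs) of 3 genotypes, all on the C57BL/6 strain. The members were the rows of the deposited expression table whose symbol was Ccnd1, Ccnd2, Ccnd3, Ccne1 or Ccne2, and all 5 were found among its 29955 gene rows. RNA was sequenced from 2 libraries labelled p53Mdm2 ko, which lack p53 and Mdm2, from 2 labelled p53ko Mdm2 C462A ki, which lack p53 and carry a knock-in of the C462A substitution in Mdm2, and from 3 labelled p53 ko. Loss of p53 is thus shared by all 7 libraries, and no library with wild-type p53 was analysed here. Mdm2 is the RING-type ubiquitin ligase best known for sending p53 to the proteasome, and its C462A form is known as a ligase-dead RING mutant. The series asks what Mdm2 does, together with the Polycomb repressive complex PRC2, where p53 is absent. The labels give neither embryonic age nor the targeting design of the alleles, nor whether replicates came from separate embryos, cultures or lines, so a p-value measures the spread between these libraries, which may be technical.

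D-type cyclins are made when growth factors act on a resting cell. They bind and activate the kinases Cdk4 and Cdk6, which begin the phosphorylation of the retinoblastoma protein Rb and its relatives, and this frees E2F transcription factors to switch on the genes of DNA synthesis. Cyclin E is itself an E2F target: it activates Cdk2, which completes Rb phosphorylation and helps to fire replication origins. In fibroblasts cyclin D1 is the textbook sensor of mitogens, cyclins D2 and D3 can stand in for it, and cyclins E1 and E2 overlap in function. All of these proteins are short-lived, so transcript levels are only a part of their control.

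Of the members, RefSeq promoter entries (GRCm38.p6) were matched for Ccne1 and for both annotated starts of Ccnd3. They are shown because the other members had no matched entry. Ccne1 and Ccnd3 are an E-type and a D-type member, and their deposited log2 values had a Pearson r of 0.93 over the 7 libraries. No link between that r and these sequences was tested. Each line gives the 250 bases before the annotated start, read 5′ to 3′ on the gene's strand, with GC boxes (GGGCGG on either strand) in capitals. The Ccne1 sequence is chr7:38107491-38107740 on the minus strand and the Ccnd3 sequence, before its downstream start, is chr17:47593217-47593466 on the plus strand.
Ccne1: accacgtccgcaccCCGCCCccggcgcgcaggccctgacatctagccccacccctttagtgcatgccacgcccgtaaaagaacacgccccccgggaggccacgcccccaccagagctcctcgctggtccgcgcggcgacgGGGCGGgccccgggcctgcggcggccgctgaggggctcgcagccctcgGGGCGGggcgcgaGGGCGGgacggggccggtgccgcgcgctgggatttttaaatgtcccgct
Ccnd3: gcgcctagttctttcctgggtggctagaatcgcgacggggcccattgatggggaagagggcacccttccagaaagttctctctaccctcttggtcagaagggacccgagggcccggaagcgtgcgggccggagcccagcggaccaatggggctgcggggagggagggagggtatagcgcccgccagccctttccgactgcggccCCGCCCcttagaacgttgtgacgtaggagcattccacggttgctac
Counted over the full RefSeq window, which runs from 250 bases before to 50 after the start, Ccne1 held 4 GC boxes and each Ccnd3 window held 2, a motif present in 35.7% of all 32851 windows. The downstream Ccnd3 window also held 1 CCAAT, a motif found in 37.4% of windows, and its second GC box lay after the start. None of the 3 windows held the E2F motifs searched (TTTCCCGC, TTTCGCGC, TTTGCCGC, TTTGGCGC, both strands), which 2.26% of windows hold, nor CACGTG (7.15%), TATAAA (13.6%), TGACTCA or its reverse complement (5.20%) or TGACGTCA (1.79%). That says only that these letters were not in these windows. The Ccne1 window was 76% G or C and the downstream Ccnd3 window 67%.

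Read totals recovered from the deposited values (M, units of 1e6 reads) were 39.8 and 28.5 for p53Mdm2 ko, 35.9 and 39.8 for p53ko Mdm2 C462A ki and 40.7, 41.5 and 35.9 for p53 ko. Levels below are normalized reads, which scale each library to a common depth and are not divided by gene length. Mdm2 had 1575 and 2334 normalized reads in p53Mdm2 ko, 2033 and 2887 in p53ko Mdm2 C462A ki and 1746, 1994 and 1914 in p53 ko. Trp53, the gene of p53, had 1603 and 1775, 1339 and 1668, and 687.1, 1396 and 1244 in the same groups. Reads of both targeted genes were thus present in every library, and since a total over a gene does not show which exons the reads came from, these totals do not check the labels: group names below are those of the labels. Replicate 2 of p53ko Mdm2 C462A ki and replicate 1 of p53 ko stood apart from their groups in several genes named below, and values without 1 or both of them stand beside the results they move most. All 8 fibroblast markers were read, with Col1a1 the highest. Summed markers of epithelium, endothelium, blood, muscle and nerve stayed at or below 4968 normalized reads per cell type in every library, against at least 913796 for the fibroblast markers.

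The smallest member count in any library was that of Ccne2 in p53ko Mdm2 C462A ki replicate 2, at 336 reads (exact 95% Poisson interval 301 to 374, counting error only), so counting error was small beside the spread between libraries. By mean level over the 7 libraries the members lay at the 98.3rd (Ccnd2), 97.0th (Ccnd1), 92.0th (Ccnd3), 70.6th (Ccne1) and 60.7th (Ccne2) percentile of the 16900 genes tested.

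Ccnd1, the gene of cyclin D1, had 8166 and 13372 normalized reads in p53Mdm2 ko, 8361 and 2988 in p53ko Mdm2 C462A ki and 19541, 14397 and 13137 in p53 ko. The p53 ko libraries were highest as a group, and the level of p53ko Mdm2 C462A ki replicate 2 was the lowest of all 7. Both C462A libraries lay below every p53 ko library, while p53Mdm2 ko replicate 2 lay inside the p53 ko range. The means were 10769 ± 3681, 5674 ± 3799 and 15692 ± 3393 in the same order (SD, n = 2, 2 and 3).

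Ccnd2, the gene of cyclin D2, followed another order. It had 12701 and 15068 normalized reads in p53Mdm2 ko, 14073 and 12386 in p53ko Mdm2 C462A ki and 11297, 24477 and 27170 in p53 ko. The 4 libraries of the Mdm2 mutants lay close together, and the p53 ko group itself was split: its replicate 1 was the lowest library of all and its replicates 2 and 3 the highest. The highest library exceeded the lowest by 2.41-fold for Ccnd2, against 6.54-fold for Ccnd1.

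Ccnd3, the gene of cyclin D3, had 4980 and 4336 normalized reads in p53Mdm2 ko, 4959 and 2215 in p53ko Mdm2 C462A ki and 7340, 6206 and 6317 in p53 ko. All 4 libraries of the Mdm2 mutants lay below all 3 p53 ko libraries. Among the 4, p53ko Mdm2 C462A ki replicate 2 again stood lowest, and the other 3 were alike.

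Ccne1, the gene of cyclin E1, had 1041 and 1680 normalized reads in p53Mdm2 ko, 1184 and 390.7 in p53ko Mdm2 C462A ki and 2180, 2259 and 2269 in p53 ko. It was the most even member among p53 ko libraries, at 2236 ± 48.6, and no library of either Mdm2 mutant reached that range. The C462A libraries differed from each other by 3.03-fold, more than for any other member.

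Ccne2, the gene of cyclin E2, had 701.4 and 1506 normalized reads in p53Mdm2 ko, 530.2 and 296.3 in p53ko Mdm2 C462A ki and 1834, 1195 and 1022 in p53 ko. The C462A libraries were the lowest 2 of the 7. Of the p53Mdm2 ko libraries, replicate 1 lay below the p53 ko range and replicate 2 inside it.

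**Figure D1:**
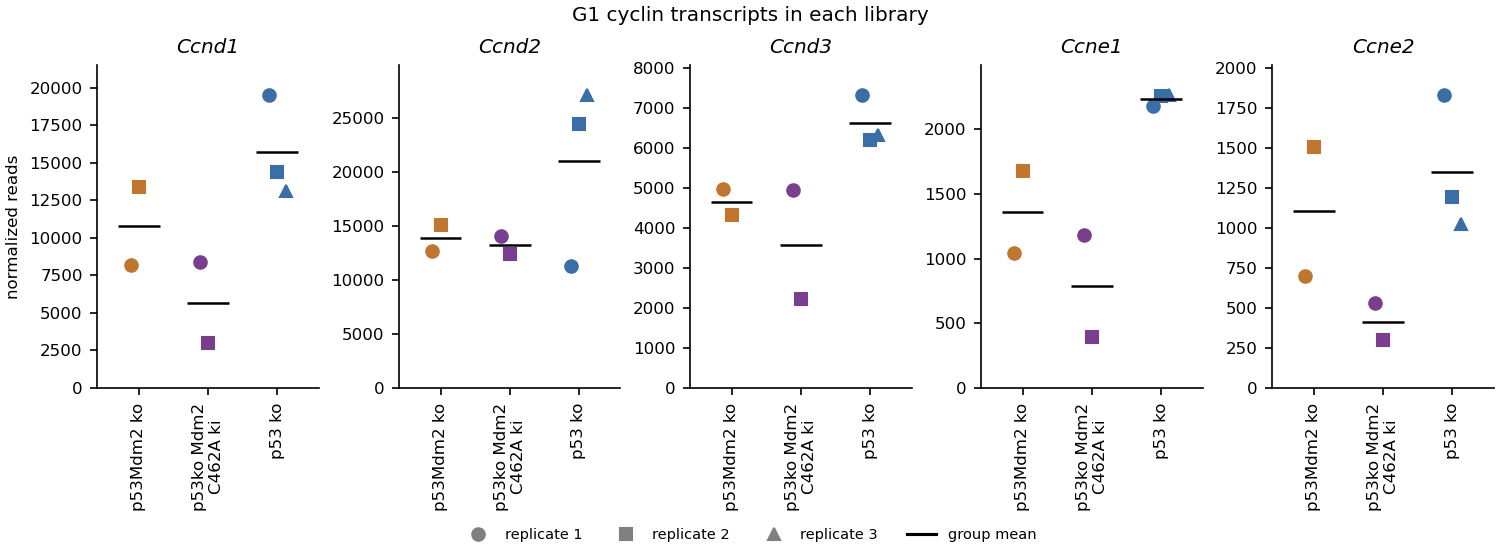
Normalized reads (y axis, from 0, a scale per gene) of the 5 G1 cyclin genes in each library, by genotype, with marker shape for the replicate and a black line at the group mean. Replicate 2 of p53ko Mdm2 C462A ki is the lowest point for Ccnd1, Ccnd3, Ccne1 and Ccne2, and p53 ko replicate 1 is the lowest for Ccnd2.

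Libraries labelled p53Mdm2 ko and p53 ko differ, by label, in the loss of Mdm2 in cells without p53. All 5 cyclins had a lower mean in p53Mdm2 ko, at 60.8% (Ccne1) to 81.7% (Ccne2) of the p53 ko mean, with Ccnd2 at 66.2%, Ccnd1 at 68.6% and Ccnd3 at 70.4%. None had an unadjusted p under 0.05, against 1.49% of genes with a lower level at that limit, and none passed the test: limma's adjusted p was 0.999967 for each, no gene of 16900 was called (0%), and 507 genes (3%) had an unadjusted p under 0.05. Nor did any member stand under 0.05 with other filters, pseudocounts or scalings, without the mean-variance trend, with voom or with a replicate block. The same held without p53 ko replicate 2 or replicate 3. A lower mean was found for 51.8% of all genes. The groups did not overlap for Ccnd3 and Ccne1, 2 of 5 members, as for 9.2% of all genes in that direction and 8.99% in the other. These 2 members had unadjusted p-values of 0.0277 (Ccnd3) and 0.0238 (Ccne1) by limma without p53ko Mdm2 C462A ki replicate 2, which enters this comparison only through the shared estimate of the spread. Of the 5 members 2 stood under 0.05 there (1.51% of genes lower at that limit), 2 with only the compared genotypes fitted (1.54%), 2 without C462A replicate 1 (1.53%), 1 without p53 ko replicate 1 (2.91%), 1 with sample weights (2.99%) and 3 without both libraries that stood apart (4.01%).

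On the deposited log2 scale Ccne1 differed by -0.75 (SE 0.45, 95% interval -1.84 to 0.35, unadjusted p = 0.147 by limma). Ccnd1 differed by -0.56 (interval -1.69 to 0.56), Ccnd2 by -0.50 (-1.44 to 0.44) and Ccnd3 by -0.50 (-1.31 to 0.30). Ccne2 differed by -0.34 (-1.39 to 0.70). Each interval held 0 and also held a decrease of 1, which is a halving on a log2 scale, so these libraries settle neither. The Ccnd2 value rested on p53 ko replicate 1: without that library it was -0.90 (unadjusted p = 0.00448, adjusted p = 0.806 by limma). That library was the lowest of all for Ccnd2. Leaving it out widens the difference and narrows the p53 ko spread by construction, so this p is no evidence of a decrease. For Ccne2 the sign itself depended on single libraries, from -0.88 without p53Mdm2 ko replicate 2 to 0.20 without p53Mdm2 ko replicate 1.

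The comparison of p53ko Mdm2 C462A ki with p53 ko asks what the C462A form of Mdm2 does in the same setting. Here too all 5 means were lower, as for 48.8% of genes: Ccne2 stood at 30.6% of the p53 ko mean, Ccne1 at 35.2%, Ccnd1 at 36.2%, Ccnd3 at 54.2% and Ccnd2 at 63.1%. Both C462A libraries lay below all p53 ko libraries for every member but Ccnd2, 4 of 5, against 14.4% of all genes in that direction and 14.1% in the other. C462A replicate 1 alone lay below all p53 ko libraries for the same 4 members. The same 4 members had an unadjusted p under 0.05 with a lower level, as did 5.44% of all genes. No member and no other gene passed the adjusted threshold (0% of 16900 genes called), while 1761 genes had an unadjusted p under 0.05, or 10.4%.

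Ccne1 differed by -1.68 on the deposited log2 scale (SE 0.45, 95% interval -2.77 to -0.59, unadjusted p = 0.00888, adjusted p = 0.437 by limma). Ccne2 differed by -1.67 (SE 0.43, interval -2.72 to -0.63, unadjusted p = 0.00742, adjusted p = 0.437) and Ccnd1 by -1.62 (SE 0.47, interval -2.75 to -0.50, unadjusted p = 0.0117, adjusted p = 0.437). Differences as low as these 3 were rare: 0.905% of genes were more negative than Ccne1, 0.929% than Ccne2 and 1.03% than Ccnd1. Ccnd3 differed by -0.99 (SE 0.33, interval -1.79 to -0.18, unadjusted p = 0.0232, adjusted p = 0.445). Ccnd2 differed by -0.57 (SE 0.39, interval -1.51 to 0.37, unadjusted p = 0.193, adjusted p = 0.659), and its group overlapped p53 ko only through p53 ko replicate 1. Without that library Ccnd2 differed by -0.96 (unadjusted p = 0.00318, adjusted p = 0.333). Here too the library left out was the lowest for Ccnd2, so the small p follows from the omission.

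The size of these differences rested in good part on p53ko Mdm2 C462A ki replicate 2. Without it, and with the remaining C462A library assumed to vary like the other groups, Ccnd1 differed by -0.89, Ccnd3 by -0.41, Ccne1 by -0.91, Ccne2 by -1.27 and Ccnd2 by -0.48. All 5 kept the lower direction, and 1 of them, Ccne1, had an unadjusted p under 0.05 (0.0278, adjusted p = 0.999 by limma), beside 1.62% of all genes with a lower level. Without both libraries that stood apart, Ccnd1 differed by -0.72, Ccnd3 by -0.34 and Ccne2 by -1.03. All 5 members were still lower there, with a median of -0.87. The C462A replicate 2 library was also apart in other genes. Mki67, a marker of proliferating cells, had 8835 and 3053 normalized reads in p53ko Mdm2 C462A ki, against 13744, 17436 and 15832 in p53 ko. Ddit3, a transcription factor gene induced by endoplasmic reticulum stress, had 3686 and 21317 against 1052, 1741 and 1348. Their part in the cyclin values was not tested, and fewer cycling cells cannot be told apart from less cyclin RNA per cycling cell in bulk RNA.

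Set against p53Mdm2 ko, which asks whether the altered and the absent Mdm2 differ, p53ko Mdm2 C462A ki had the lower mean for all 5 members, as for 48.3% of genes. Ccne2 stood furthest apart, at 37.4% of the p53Mdm2 ko mean, and was the 1 member whose groups did not overlap, as for 17.1% of genes in that direction. It differed by -1.33 (SE 0.48, 95% interval -2.48 to -0.18, unadjusted p = 0.0291, adjusted p = 0.99978 by limma), and 1.78% of genes had a lower level at an unadjusted p under 0.05. Ccnd1 differed by -1.06 (interval -2.29 to 0.17), Ccne1 by -0.93 (-2.13 to 0.26) and Ccnd3 by -0.48 (-1.37 to 0.40). Ccnd2 did not separate these genotypes, with a difference of -0.07 and an interval of -1.10 to 0.96. No gene was called (0%), and 503 genes (2.98%) had an unadjusted p under 0.05. Without p53ko Mdm2 C462A ki replicate 2 the differences were -0.93 for Ccne2, -0.32 for Ccnd1, -0.16 for Ccne1, 0.09 for Ccnd3 and 0.02 for Ccnd2. At that limit, with a lower level, stood 4 members without p53ko Mdm2 C462A ki replicate 1 (4.4% of genes), and none without its replicate 2 (0.379%), without p53Mdm2 ko replicate 2 (0.219%) or without both libraries that stood apart (1.59%). The comparisons share libraries: both Mdm2 mutants were set against the same 3 p53 ko libraries.

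**Figure D2:**
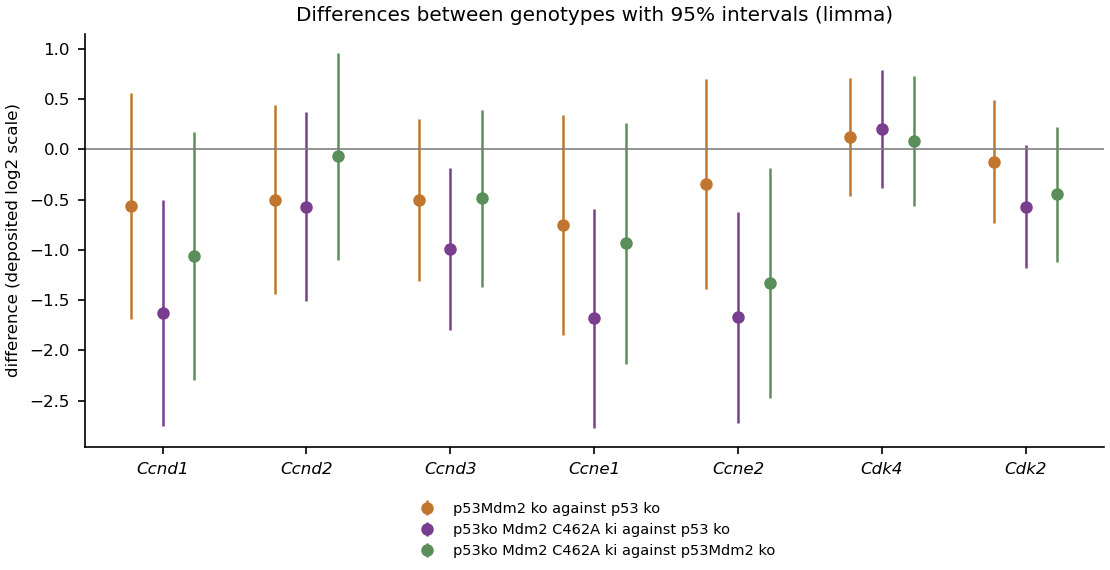
Differences on the deposited log2 scale (y axis) of the 5 G1 cyclins and the partner kinases Cdk4 and Cdk2 in the 3 comparisons; points are limma estimates and bars 95% intervals. For p53ko Mdm2 C462A ki against p53 ko the intervals of Ccnd1, Ccnd3, Ccne1 and Ccne2 lie below 0, and no gene passed the adjusted threshold.

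Levels of different genes were compared after division by the length of the principal GENCODE M21 transcript, which gives normalized reads per kb. On that scale each E-type member lay below every D-type member in all 7 libraries, and Ccne1 above Ccne2. In group means Ccnd1 had 2879 ± 984, 1517 ± 1016 and 4196 ± 907 normalized reads per kb in p53Mdm2 ko, p53ko Mdm2 C462A ki and p53 ko, Ccnd2 2193 ± 264, 2090 ± 188 and 3315 ± 1342, and Ccnd3 2204 ± 215, 1697 ± 918 and 3134 ± 296. Ccne1 had 680 ± 226, 394 ± 280 and 1118 ± 24.3, and Ccne2 367 ± 189, 137 ± 55.0 and 449 ± 142 (SD, n = 2, 2 and 3). The order among the D-type members was not fixed: the highest was Ccnd3 in replicate 1 of each Mdm2 mutant, Ccnd1 in p53Mdm2 ko replicate 2 and p53 ko replicate 1, and Ccnd2 in the remaining 3 libraries. In each genotype, neighbours in the order of D-type group means differed by less than the larger of their SDs, while Ccne1 exceeded Ccne2 by more than either SD in p53Mdm2 ko and p53 ko but not in p53ko Mdm2 C462A ki. The length matters: over the union of all annotated exons, where Ccnd3 is 8775 bases long in place of 2113, Ccne1 lay above Ccnd3 in 3 libraries.

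Summed over Ccnd1, Ccnd2 and Ccnd3, D-type transcripts had 6546 and 8008 normalized reads per kb in p53Mdm2 ko, 6805 and 3804 in p53ko Mdm2 C462A ki and 10484, 10653 and 10795 in p53 ko. The 3 p53 ko libraries were nearly equal in this sum, although they differed in its make-up, and all 4 Mdm2 mutant libraries lay below them. Ccnd1 made up 49.8% of the sum and Ccnd2 17.0% in p53 ko replicate 1, while in replicates 2 and 3 Ccnd1 made up 36.1% and 32.5% and Ccnd2 36.3% and 39.8%. In p53ko Mdm2 C462A ki replicate 2 Ccnd2 was the main D-type transcript, at 51.4%, with Ccnd1 at 21%. E-type transcripts summed to 754 and 1341 in p53Mdm2 ko, 768 and 294 in p53ko Mdm2 C462A ki and 1700, 1527 and 1475 in p53 ko, again with every mutant library below every p53 ko library. Ccne1 made up 62.6% to 77.0% of the E-type sum in the 7 libraries. These sums and shares were chosen to describe the members, and no test was run on them.

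**Figure D3:**
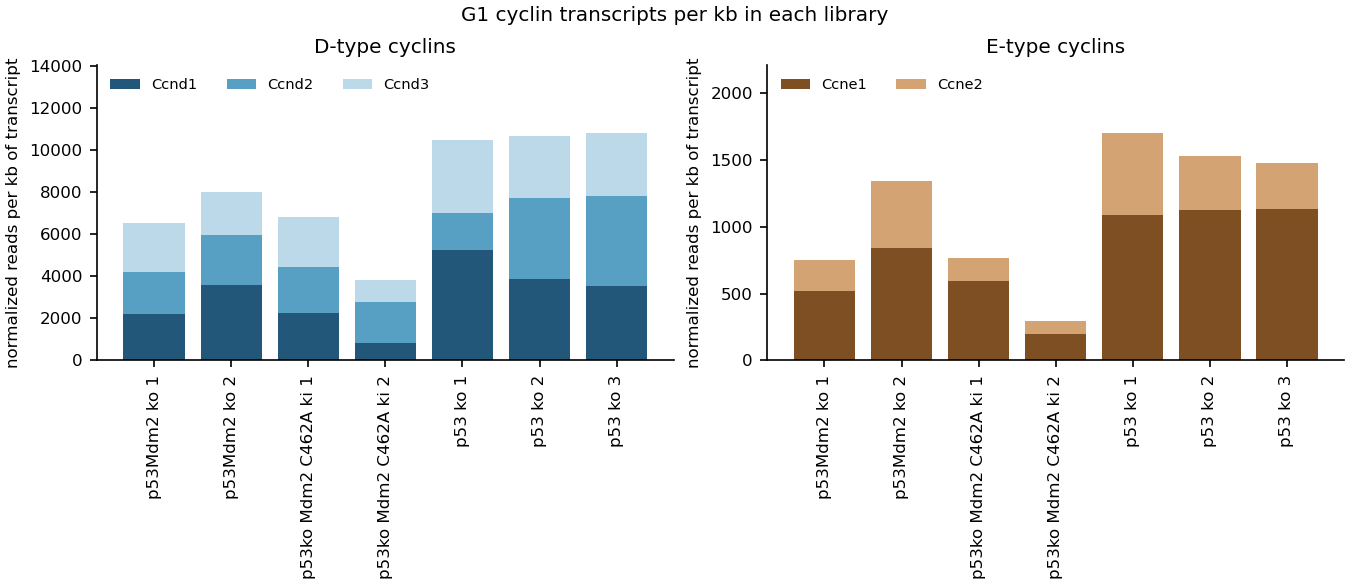
Normalized reads per kb of principal transcript (y axis, from 0) of the D-type (left) and E-type (right) cyclins in each library, stacked by gene. The D-type stacks of the 3 p53 ko libraries reach 10484 to 10795 with different shares of Ccnd1 and Ccnd2, and p53ko Mdm2 C462A ki replicate 2 has the lowest stacks, at 3804 and 294.

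Members could also be read by how they varied together. Across the 7 libraries the deposited log2 values of Ccnd1 had a Pearson r of 0.97 with Ccne1, 0.96 with Ccne2 and 0.92 with Ccnd3, while Ccnd2 stayed between 0.24 (Ccne2) and 0.54 (Ccne1) with every other member. Ccnd3 and Ccne1, whose promoters are printed above, had the r of 0.93 already given. These values describe 7 libraries of which 1, p53ko Mdm2 C462A ki replicate 2, was lowest for 4 members, and they carry no test. Of 11391 genes with a mean of at least 100 normalized reads, those most like Ccnd1 were Mdc1 (r = 0.997), Ttk (0.993) and Ccna2 (0.993). Those most like Ccne1 were Adamts10, Tnfsf11 and Depdc1b (0.994 to 0.988), and those most like Ccne2 were Pitpna, Vps36 and Zw10 (0.997 to 0.996). For Ccnd3 they were Vsig10, Psmd13 and R3hcc1 (0.991 to 0.987), and for Ccnd2 Rps6kb1, Wipi1 and Tcp11l1 (0.986 to 0.966). No gene stood in more than 1 of these 5 sets, but most of the sets depended on single libraries. Without p53ko Mdm2 C462A ki replicate 2, Ttk fell to rank 39 and Ccna2 to rank 42 for Ccnd1. R3hcc1 fell to rank 38 for Ccnd3 and Depdc1b to rank 37 for Ccne1. Mdc1 kept rank 3 or better for Ccnd1, and Pitpna, Vps36 and Zw10 held ranks 3 to 5 for Ccne2.

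The kinase partners gave differences nearer to 0 than most of the cyclins, with a wide interval for Cdk6. Cdk4, the main partner of D-type cyclins in fibroblasts, had 16583 and 11881 normalized reads in p53Mdm2 ko, 16929 and 13033 in p53ko Mdm2 C462A ki and 15468, 11966 and 11592 in p53 ko. Its groups overlapped, and it differed by 0.12 (95% interval -0.47 to 0.71) in p53Mdm2 ko and by 0.20 (-0.39 to 0.79) in p53ko Mdm2 C462A ki. Cdk6, the other partner, was low and uneven, with 236.6 and 682.4, 287.7 and 586.5, and 58.2, 762.9 and 518.8 in the same groups. Its spread within p53 ko was 13.1-fold, and it differed by 0.41 (interval -2.08 to 2.90) in p53Mdm2 ko and by 0.44 (-2.05 to 2.92) in p53ko Mdm2 C462A ki. Cdk2, the partner of cyclin E, had 2077 and 2145 in p53Mdm2 ko, 1848 and 1290 in p53ko Mdm2 C462A ki and 3001, 2091 and 1935 in p53 ko. Both C462A libraries lay below all p53 ko libraries for Cdk2, with a difference of -0.57 (interval -1.18 to 0.05, unadjusted p = 0.0645, adjusted p = 0.506 by limma), and of -0.12 without both libraries that stood apart.

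Around the kinases, the 8 genes of G1 kinases and their activators split evenly, with 4 higher and 4 lower in p53Mdm2 ko and 5 higher and 3 lower in p53ko Mdm2 C462A ki, each against p53 ko. No gene of this or any other list passed the adjusted threshold in any comparison. Cdc25a, the phosphatase that removes inhibitory phosphates from Cdk2, had 1335 and 2081 normalized reads in p53Mdm2 ko, 1258 and 801.7 in p53ko Mdm2 C462A ki and 1930, 1926 and 1717 in p53 ko. It was lowest in the C462A libraries, with a difference of -0.87 from p53 ko (unadjusted p = 0.017, adjusted p = 0.437 by limma). Ccnh, whose product is a subunit of the kinase that activates Cdks, was higher there by 0.46 (unadjusted p = 0.0489). Among 7 CDK inhibitor genes 5 were higher and 2 lower in p53ko Mdm2 C462A ki, with a median of 0.49, beside 0.01 for all genes. This too rested on p53 ko replicate 1: without it 4 were higher and 3 lower, with a median of 0.12, and with sample weights the median was 0.23. The 1 inhibitor with an unadjusted p under 0.05 was Cdkn2d, which encodes the Cdk4 and Cdk6 inhibitor p19INK4d. It had 448 and 317.5 normalized reads in p53ko Mdm2 C462A ki, against 936.2, 615.4 and 676.3 in p53 ko, a difference of -0.92. Without both libraries that stood apart, Cdkn2d differed by -0.51 and Cdc25a by -0.52 from p53 ko, and neither had an unadjusted p under 0.05.

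Of the 3 pocket protein genes, Rbl1, which encodes the Rb relative p107, had a lower level in p53ko Mdm2 C462A ki, with 871 and 650 normalized reads against 1910, 1154 and 1373 in p53 ko (difference -0.92, unadjusted p = 0.017 by limma, and difference -0.52 without both libraries that stood apart). The other two were higher in the mean, and the list median was 0.01. Of 10 E2F and DP factor genes 9 had a lower mean in p53ko Mdm2 C462A ki than in p53 ko, with a median of -0.47. Of these, 4 had an unadjusted p under 0.05 with a lower level, as did 5.44% of all genes. The smallest p-values were those of E2f8 and E2f7, which encode the atypical repressor E2Fs that damp the G1/S programme. E2f8 had 509.2 and 172 in p53ko Mdm2 C462A ki, against 1791, 991.3 and 856.4 in p53 ko (difference -1.88). E2f7 had 819.9 and 524.8 against 1582, 1678 and 1266 (difference -1.17). Without p53ko Mdm2 C462A ki replicate 2 9 of 10 were lower, none at an unadjusted p under 0.05, and E2f8 differed by -1.15 and E2f7 by -0.85. Without both libraries that stood apart E2f8 differed by -0.83 and E2f7 by -0.82.

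Replication genes that E2F factors are known to activate were also counted, and whether their levels follow those of the G1 cyclins was not tested. All 25 tested had a lower mean in p53ko Mdm2 C462A ki than in p53 ko, as for 48.8% of all genes, with a median of -0.81. Of these, 12 had an unadjusted p under 0.05 with a lower level, as did 5.44% of all genes. In p53Mdm2 ko 21 of 25 were lower than in p53 ko and none reached an unadjusted p under 0.05, with a median of -0.23. That direction rested on p53 ko replicate 1: without it 10 of 25 were lower in p53Mdm2 ko, with a median of 0.07, and with sample weights 13 of 25, with a median of -0.02. Between the Mdm2 mutants all 25 were lower in p53ko Mdm2 C462A ki, 5 at an unadjusted p under 0.05, beside 1.78% of all genes lower at that limit. Rrm1, the large subunit of ribonucleotide reductase, had 6923 and 6029 normalized reads in p53ko Mdm2 C462A ki, against 11237, 11192 and 11355 in p53 ko (difference -0.80, unadjusted p = 0.00251, adjusted p = 0.437 by limma). Rrm2, the small subunit, had 2826 and 825.5 against 8257, 5831 and 5108 (difference -2.02). Without p53ko Mdm2 C462A ki replicate 2 all 25 remained lower than in p53 ko, and the median was -0.54. Without p53 ko replicate 1 the same comparison gave 24 lower and a median of -0.58. There 8 stood at an unadjusted p under 0.05, beside 6.61% of all genes lower at that limit. Without both libraries 23 were lower, with a median of -0.24. Rrm1 then differed by -0.70 and Rrm2 by -0.94.

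Of the S and M phase cyclins, 3 of 4 tested had a lower mean in p53Mdm2 ko than in p53 ko, none at an unadjusted p under 0.05, with a median of -0.30 and Ccnb1 at 0.02. All 4, Ccna2, Ccnb1, Ccnb2 and Ccnf, had a lower mean in p53ko Mdm2 C462A ki than in p53 ko, with a median of -1.41. Each had an unadjusted p under 0.05 with a lower level, as did 5.44% of all genes. Ccna2, cyclin A2, had 3580 and 1383 normalized reads in p53ko Mdm2 C462A ki, against 8163, 6018 and 6221 in p53 ko (difference -1.59, unadjusted p = 0.00706, adjusted p = 0.437 by limma). Ccnb2, cyclin B2, had 1538 and 739.1 against 4667, 2145 and 2595 (difference -1.46). Against p53Mdm2 ko the smallest p-values were those of Ccnb1 (difference -0.89) and Ccnf (-1.22). Without p53ko Mdm2 C462A ki replicate 2 the median of the 4 against p53 ko was -0.78. Without both libraries that stood apart it was -0.63. The 17 other cyclins tested, which act in transcription and elsewhere, had 8 higher and 9 lower in p53ko Mdm2 C462A ki, none at an unadjusted p under 0.05 and a median of -0.04, and 9 higher and 8 lower in p53Mdm2 ko, also none.

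**Figure D4:**
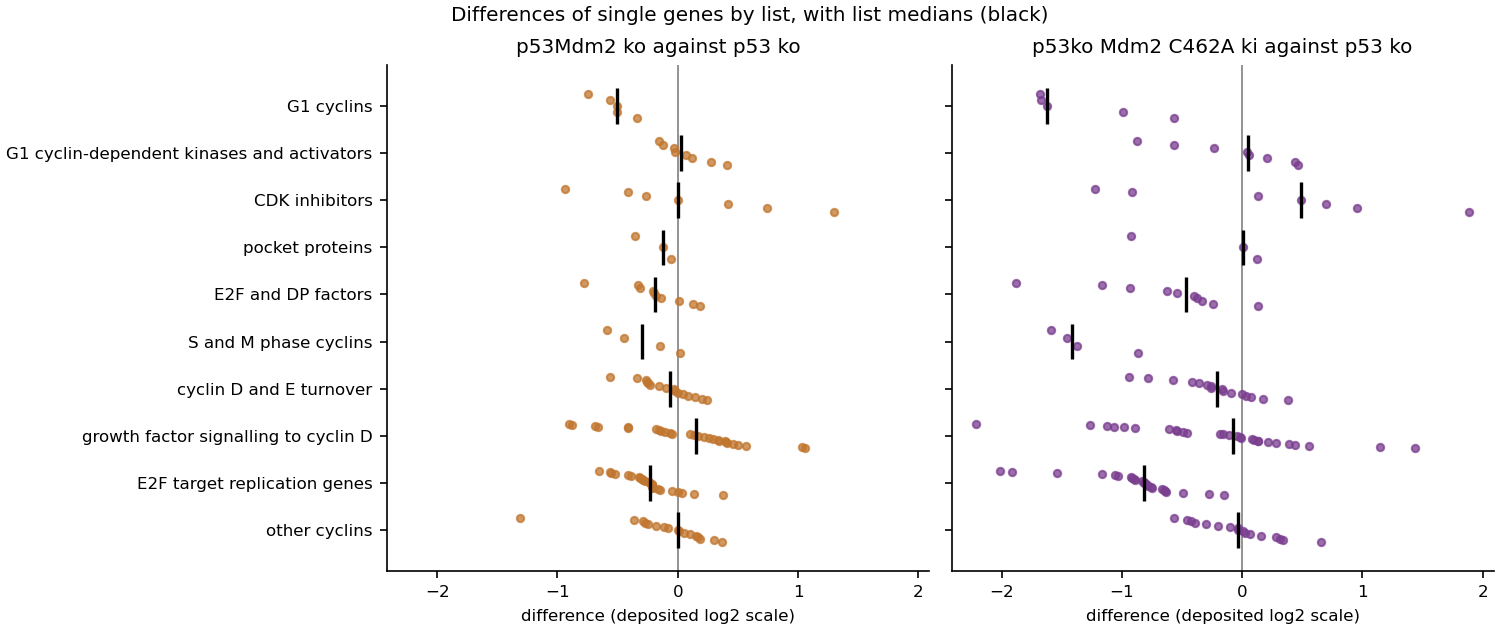
Difference of each tested gene (points, deposited log2 scale on the x axis) in 10 gene lists, for p53Mdm2 ko against p53 ko (left) and p53ko Mdm2 C462A ki against p53 ko (right), with black bars at list medians. At right the medians of the G1 cyclins (-1.62), the S and M phase cyclins (-1.41) and the E2F target replication genes (-0.81) lie furthest below 0, and that of other cyclins lies at -0.04.

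Genes that control how long cyclins D and E last had small median differences. Of 16 turnover genes 12 were lower in p53ko Mdm2 C462A ki than in p53 ko, with a median of -0.21. Beside 5.44% of all genes lower at an unadjusted p under 0.05 stood 2 of the 16. These were Skp2, an F-box protein whose targets include cyclin E and p27 (difference -0.79, with 1420 and 859 normalized reads against 1984, 1945 and 1834, and -0.43 without C462A replicate 2), and Cryab, reported as a partner of the F-box protein Fbxo4 in cyclin D1 degradation (-0.94, with 841 and 1493 against 2527, 1479 and 2739). Fbxw7, the best known cyclin E ligase subunit, was not among them.

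Upstream, 28 genes that carry growth factor signals to the cyclin D genes were counted in each comparison. In p53Mdm2 ko 16 were higher and 12 lower than in p53 ko, and in p53ko Mdm2 C462A ki 11 were higher and 17 lower, with medians of 0.15 and -0.08. Without p53 ko replicate 1 the C462A count was 9 higher and 19 lower, with a median of -0.30, and with sample weights the medians were -0.02 and -0.34. Between p53ko Mdm2 C462A ki and p53Mdm2 ko 8 were higher and 20 lower, with a median of -0.23. Hras1, the gene of the H-Ras GTPase, had 1614 and 1551 normalized reads in p53Mdm2 ko, 1542 and 1511 in p53ko Mdm2 C462A ki and 2204, 2228 and 1916 in p53 ko. It was lower in both Mdm2 mutants without overlap, as for 9.2% (p53Mdm2 ko) and 14.4% (C462A) of all genes, against the same p53 ko libraries. The differences were -0.41 and -0.46 on the log2 scale (unadjusted p = 0.0331 and 0.0208, adjusted p = 0.999967 and 0.437 by limma). Without both libraries that stood apart they were -0.38 and -0.42. Ets2, an Ets transcription factor gene, had 1870 and 4807 in p53ko Mdm2 C462A ki, against 676.2, 1514 and 1282 in p53 ko (difference 1.44, and 0.42 without both libraries that stood apart). Foxo3, which encodes a FoxO factor known to repress cyclin D genes, had 387.9 and 569.8 in p53ko Mdm2 C462A ki, against 258.9 and 245.9 in p53Mdm2 ko (difference 0.85, and 0.58 without C462A replicate 2). It overlapped p53 ko, where it had 279, 439 and 326.8.

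Some member reads may belong to neighbours, since the library kit does not mark strand. In GRCm38 with GENCODE M21 the exons of Ccnd1 share 1100 bases (23.4% of its exon bases) with the opposite-strand gene LTO1, listed as Oraov1 in the table. Those of Ccne2 share 609 bases (17.4%) with Ints8 and those of Ccnd3 361 (4.11%) with Bysl. Those of Ccnd2 share 372 (3.95%) with Gm43126 and 368 (3.91%) with 9330179D12Rik, both antisense genes on the opposite strand. Ccne1 shares none. The files' build is mm9, so these positions describe the gene models and not the authors' counting. Oraov1 itself had 1626 and 1903 normalized reads in p53Mdm2 ko, 1455 and 728.5 in p53ko Mdm2 C462A ki and 2835, 1676 and 1831 in p53 ko. Ints8, with 2100 and 1603 in p53ko Mdm2 C462A ki against 2704, 2390 and 2469 in p53 ko, was above Ccne2 in every library. How far shared reads enter the values of the members was not tested. The gene models are Ccnd1 at chr7:144929931-144939925 (minus strand), Ccnd2 at chr6:127125162-127152193 (minus), Ccnd3 at chr17:47505051-47599691 (plus), Ccne1 at chr7:38097984-38107534 (minus) and Ccne2 at chr4:11191351-11204779 (plus). A processed pseudogene, Ccnd3-ps on chromosome 4, may share reads with Ccnd3.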

How the data were processed

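Total RNA of MEFs grown with 10% serum was made into TruSeq RNA libraries and sequenced as single reads of 50 bases, per the labels' protocols. The submitters' processing notes name, without roles, build mm9 and the tools Bowtie2 2.1.0, CASAVA 1.8.2 and DESeq 1.14.0. How reads were counted, and over which annotation, is not given in the sources used here. The authors deposited 1 value per gene and library on a log2 scale, variance-stabilized, with 3.36 for a gene without reads. That value fixes the inverse, which gave normalized reads and, within 0.05 of whole numbers for 100% of values above 0, whole reads.

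Groups came from the sample titles. Limma 3.58.1 (R 4.3.3; lmFit, contrasts, eBayes with a mean-variance trend) was fitted to the deposited log2 values of the 16900 genes that averaged at least 10 normalized reads, all 7 libraries in 1 fit with 4 residual degrees of freedom. P-values are two-sided and Benjamini-Hochberg adjusted over these genes (threshold 0.05). The fit was also run on simulated data in which each gene had the same spread in all groups. That does not cover groups of unequal spread, such as those seen here, and no result rests on it. Differences understate the change of genes with few reads.

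The members and the gene lists were chosen with earlier results of these data known, so no list was tested as a set. Besides the members, the partner kinases and the targeted genes, the text names the 2 genes of each list with the smallest unadjusted p under 0.05 per comparison, and the 3 genes most like each member by Pearson r. Mki67, Ddit3, the overlapping neighbours and Fbxw7 were named after values were seen. Alternatives covered the filter, the pseudocount, the scaling, the variance model, sample weights, voom, a replicate block and leaving out libraries. Intervals on counts cover counting error only.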

Additional observations from a re-analysis of the deposited data

How the results depend on the processing

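The 15 differences of the members were recomputed under 20 settings each. Of the 300 values 293 kept their direction and their side of the adjusted threshold, while 7 reversed. Part of the 293 could not change direction. The filters, the trend, fitting only the groups compared and leaving out a library not compared leave a difference as it was. No member passed the adjusted threshold in the main fit, so keeping that side says little. The lowest adjusted p of a member in any setting was 0.128. No gene was called in any comparison under any setting, save 1 gene, Ifi202b, in p53Mdm2 ko against p53 ko without p53ko Mdm2 C462A ki replicate 2 and p53 ko replicate 1. Limma's voom on the recovered reads called 0 genes and had 470, 1724 and 458 at an unadjusted p under 0.05. edgeR and DESeq2 were not run, since the deposited values are on a log2 scale.

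In the main fit the differences that reversed ran from -0.48 (Ccnd3 between the Mdm2 mutants) to 0.44 (Cdk6 in p53ko Mdm2 C462A ki against p53 ko). With single libraries left out, Ccne2 in p53Mdm2 ko against p53 ko ran from -0.88 to 0.20, Cdk2 from -0.245 to 0.0689, Cdk4 from -0.12 to 0.36 and Cdk6 from -0.61 to 1.137, while Cdk6 in p53ko Mdm2 C462A ki against p53 ko ran from -0.59 to 1.08. Between p53ko Mdm2 C462A ki and p53Mdm2 ko, Ccnd2 ran from -0.19 to 0.0558, Ccnd3 from -1.06 to 0.0933, Cdk4 from -0.16 to 0.32 and Cdk6 from -0.70 to 0.75. With sample weights Cdk2 and Cdk6 in p53Mdm2 ko gave 0.0273 and -0.52 and Cdk6 in p53ko Mdm2 C462A ki gave -0.49, each against p53 ko. Without both libraries named above these were 0.0689, -0.61 and -1.08, and against p53Mdm2 ko Ccnd2 gave 0.0247, Ccnd3 0.0933 and Cdk6 -0.46 in p53ko Mdm2 C462A ki. Quantile normalization gave 0.0331 for Ccnd2 and -0.0171 for Cdk6 there. The cause was not tested.

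The labels do not say whether replicate numbers pair the libraries. Deviations of same-numbered libraries from their group means had correlations from -0.16 to 0.20. In a group of 2 the deviations mirror each other, so these correlations cannot decide whether the libraries were paired. With a replicate block, Ccnd1, Ccnd2, Ccnd3, Ccne1 and Ccne2 differed by -1.74, -0.33, -1.02, -1.67 and -1.85 in p53ko Mdm2 C462A ki and by -0.68, -0.27, -0.54, -0.74 and -0.52 in p53Mdm2 ko, each against p53 ko, and the block called 0 genes. Between the mutants it left 279 genes at an unadjusted p under 0.05 and no member with a lower level there: Ccne2 kept its difference of -1.33, with an unadjusted p of 0.0653 by limma. The other scalings moved the median of all genes by less than 0.1 on the log2 scale.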
